A study of Mus musculus with 6 samples.

Results

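The enzymes that write and erase acetyl and methyl marks on histones and DNA were followed in myeloid cells of the mouse pancreas after exposure to β-glucan. Members were the autosomal protein-coding genes of the deposited table with symbols of the families Kdm1 to Kdm8, Kmt2, Kmt5, Setd, Hdac, Sirt1 to Sirt7, Dnmt1, Dnmt3, Tet1 to Tet3, Ezh1, Ezh2 and Kat2 to Kat8, taken by symbol alone. This rule gave 64 of the 21780 genes in the table. C57BL/6 mice received PBS (3 libraries) or whole glucan particles (WGP), hollow yeast cell walls rich in (1,3) β-glucan (3 libraries), into the peritoneum, and on day 7 live CD45+CD11b+ cells were collected from their pancreata by flow sorting. The study's methods give a single dose of 1 mg and male and female mice aged 6 to 8 weeks. The labels name no difference between the groups other than the injection, and the study describes its samples as separate animals from 1 experiment, so p-values measure the spread between animals within that experiment.

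Trained immunity is the state in which an innate immune cell, once stimulated, answers a later stimulus differently, and it is generally described as a change in chromatin: marks such as H3K4 methylation at enhancers and promoters and H3K27 acetylation outlast the first stimulus. The enzymes form opposing classes. Acetyltransferases of the Kat family add acetyl groups, which histone deacetylases (Hdac) and the NAD-dependent sirtuins remove. Methyltransferases with a SET domain (Kmt, Setd, Ezh) add methyl groups to lysines, which the flavin-dependent Kdm1 enzymes and the JmjC demethylases (the other Kdm genes) remove. Dnmt enzymes methylate cytosines in DNA, and Tet dioxygenases oxidize that mark. The libraries measure mRNA of these enzymes, not the marks themselves.

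Among these genes Kmt5a had the smallest p-value of those that rose in WGP libraries and Hdac9 of those that fell, and the 250 bases before their annotated starts are shown to compare their promoters. Both windows come from the RefSeq promoter table for GRCm38.p6, which matched 51 of the 64 genes. The Kmt5a window is chr5:124439680-124439929 on the plus strand and that of Hdac9 is chr12:34917096-34917345 on the minus strand. Capitals mark the GC box GGGCGG, the CCAAT box CCAAT and the TATA box TATAAA, each searched on both strands, and no marked matches overlap.
Kmt5a: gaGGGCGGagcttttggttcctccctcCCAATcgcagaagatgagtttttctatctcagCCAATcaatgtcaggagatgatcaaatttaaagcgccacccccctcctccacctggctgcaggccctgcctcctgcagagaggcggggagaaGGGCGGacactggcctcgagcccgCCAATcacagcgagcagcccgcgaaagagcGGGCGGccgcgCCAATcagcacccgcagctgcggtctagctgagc
Hdac9: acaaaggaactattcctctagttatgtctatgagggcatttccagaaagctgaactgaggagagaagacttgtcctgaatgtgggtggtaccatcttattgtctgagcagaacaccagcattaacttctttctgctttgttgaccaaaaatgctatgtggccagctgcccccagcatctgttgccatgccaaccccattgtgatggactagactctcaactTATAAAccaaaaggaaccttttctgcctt
The Kmt5a window held 16 CpG dinucleotides and 62% G or C, with 3 GC boxes and 4 CCAAT boxes and no TATA box. That of Hdac9 held 0 CpG and 44.4% G or C, with a TATA box beginning 29 bases before the start and neither of the other boxes. Over the 32817 windows of this length in the table the medians were 6 CpG and 52.4% G or C, and 32.7%, 33.8% and 12.4% of windows held the GC, CCAAT and TATA boxes. Neither window held the letters of an AP-1 site (TGANTCA), an E-box (CACGTG), an ETS core (CCGGAA) or a CRE (TGACGTCA), which 6.75%, 6.02%, 12% and 1.55% of windows held. The table lists 3 start sites for Kmt5a and 2 for Hdac9, and counts per gene do not tell which was in use.

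The libraries held between 35334645 and 43341834 counts. Levels are CPM values, the counts of a gene relative to its library's total after scaling by TMM factors. Of the 64 genes, 44 had at least 1000 counts in every library, and Dnmt3c and Kdm4d had 0 counts in all 6 libraries. There, 3 counts would be at most 0.0849 CPM per library on totals without TMM scaling, a value that covers counting error only. Just 117 to 138 genes per library had 1 to 3 counts, and the most frequent count between 10 and 100 was 19 to 41 depending on the library. If 1 molecule gave many counts, a count of 0 would allow a level well above that of 3 counts, which was not tested. Genes of the sort were present in every library: Ptprc, which encodes CD45, had 949 to 1043 CPM in PBS and 1536 to 1747 CPM in WGP libraries, and Itgam, which encodes CD11b, 189 to 254 and 379 to 418 CPM. Marker genes of several cell types moved with the treatment. Of 12 markers of resident macrophages 8 fell (summed 11569 to 24046 CPM in PBS and 6577 to 8566 CPM in WGP), and of 8 markers of Ly6C-high monocytes 6 rose (852 to 1293 and 3742 to 4135 CPM). B cell markers fell in 7 of 8 cases, with sums of 2542, 664 and 389 CPM in PBS and 89.97 to 182 CPM in WGP libraries, and acinar markers fell in 9 of 9 (1465 to 5644 and 391 to 651 CPM). Of 11 genes of the dissociation response, 7 fell (24534 to 31778 and 9189 to 12546 CPM). Neutrophil markers split, with 2 of 12 higher and 3 lower. At most 2 markers passed in the lists for eosinophils, dendritic cells, T cells, NK cells and endothelial cells, and 0 of 7 passed for fibroblasts in edgeR and in DESeq2, with 2 at an unadjusted p under 0.05 and a sum of 1821 CPM in WGP replicate 2 against 37.3 to 175 CPM in the others. In bulk libraries fewer cells of a type and less RNA per cell cannot be told apart, and the part of these shifts in the enzyme values below was not tested. The libraries also differed in 4 Y-linked genes, with 8972 and 10063 counts in PBS replicates 2 and 3, 0 in PBS replicate 1 and at most 1 in each WGP library, so Y-linked counts and treatment partly coincide. Below, Y-linked counts means those of these 4 genes. Over all protein-coding Y-linked genes PBS replicate 1 had 707 counts and the WGP libraries 179 to 436, against 9401 and 10514 in PBS replicates 2 and 3. The labels do not give the sex of the mice, and a term for Y-linked counts stands for sex only as far as these counts show it. PBS replicate 1 and WGP replicate 2 were each farthest from the median of their group for 31 of the 62 tested enzymes (50%), beside 47.3% and 40.9% of all genes.

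The question was whether mRNA of these enzymes differed after WGP, and the typical difference was small. Of the 62 genes with enough counts to test, 1 rose and 4 fell by edgeR's quasi-likelihood test (adjusted p up to 0.05), which is 8.06%, while 14.4% of the 14429 protein-coding genes tested passed in either direction (7.54% higher and 6.81% lower). The 5 genes were Kmt5a, which rose, and Hdac9, Hdac10, Kdm6b and Kmt2e, which fell. With a change of at least 2-fold required as well, Kmt5a, Hdac9 and Hdac10 remained, 4.84% of the members against 9.49% of all genes. The members were better expressed than most genes, with a median mean level of 67.9 CPM against 17.9 CPM, so a second background of the 8568 genes with a mean of at least 10 CPM was added after the values were seen. In it 22.5% passed, against 5 of the 52 members at that level, 9.62%. Without PBS replicate 1, 7 enzymes passed, the same 5 with Hdac5 and Kat6b. Without PBS replicate 2, and likewise without WGP replicate 2, 3 passed, and Kdm6b and Kmt2e were lost. In a fit with a term for Y-linked counts 3 passed, with Kdm2b gained and Hdac10, Kdm6b and Kmt2e lost. Of the 45 enzymes in classes without a call, 5 had an unadjusted p under 0.05, and 0 passed in DESeq2 and in limma-voom.

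**Figure D1:**
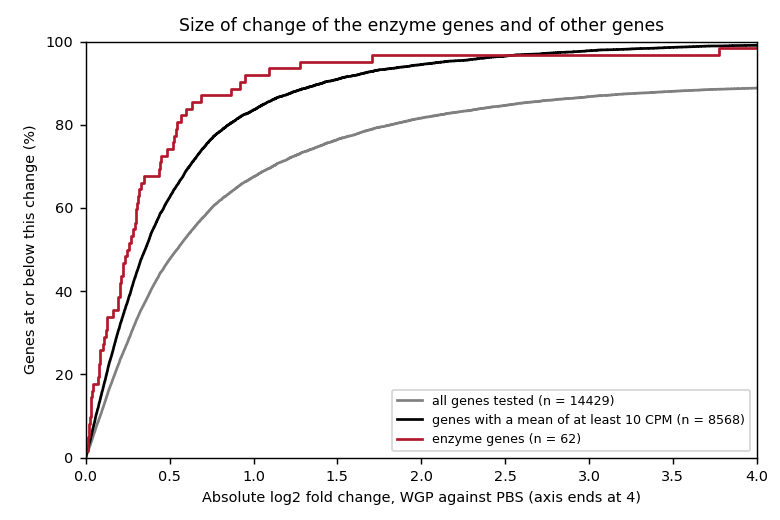
Cumulative share of genes (y axis, percent) against the absolute log2 fold change between WGP and PBS libraries (x axis, ending at 4) for all 14429 genes tested, the 8568 with a mean of at least 10 CPM and the 62 enzyme genes. The enzyme curve lies to the left of both backgrounds below a change of 2, with a median of 0.25 against 0.54 and 0.35.

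The median absolute log2 fold change was 0.25 for the enzymes, 0.54 for all genes tested and 0.35 for genes of at least 10 CPM. The median signed change was -0.02, beside -0.05 for all genes, with 29 enzymes on the higher and 33 on the lower side. For 45 of the 62 (72.6%) the 95% interval of the fold change lay within 2-fold either way, compared with 36% of all genes. For 24 (38.7%) it lay within 1.5-fold, compared with 12.5%. For those 45 and 24 enzymes a larger difference between the groups was outside the interval, whereas for the remaining 17 the interval reached beyond 2-fold. Among the 52 enzymes of at least 10 CPM the 2 shares were 86.5% and 46.2%, compared with 60.1% and 21% of genes at that level. The 3 PBS and 3 WGP values did not overlap for 20 enzymes (32.3%), 7 higher (11.3%) and 13 lower (21%) in WGP, beside 32% of all genes (16% higher and 16.1% lower). At 10 CPM or more this was so for 19 of the 52 enzymes (36.5%), beside 42.9% of genes at that level. The 7 higher enzymes were Kat2b, Kdm2a, Kdm3a, Kdm4b, Kmt5a, Setd1b and Setd7, of which only Kmt5a passed the test, and 4 of the 13 lower enzymes passed. At an unadjusted p under 0.05 there were 12 enzymes (19.4%), beside 26% of all genes.

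**Figure D2:**
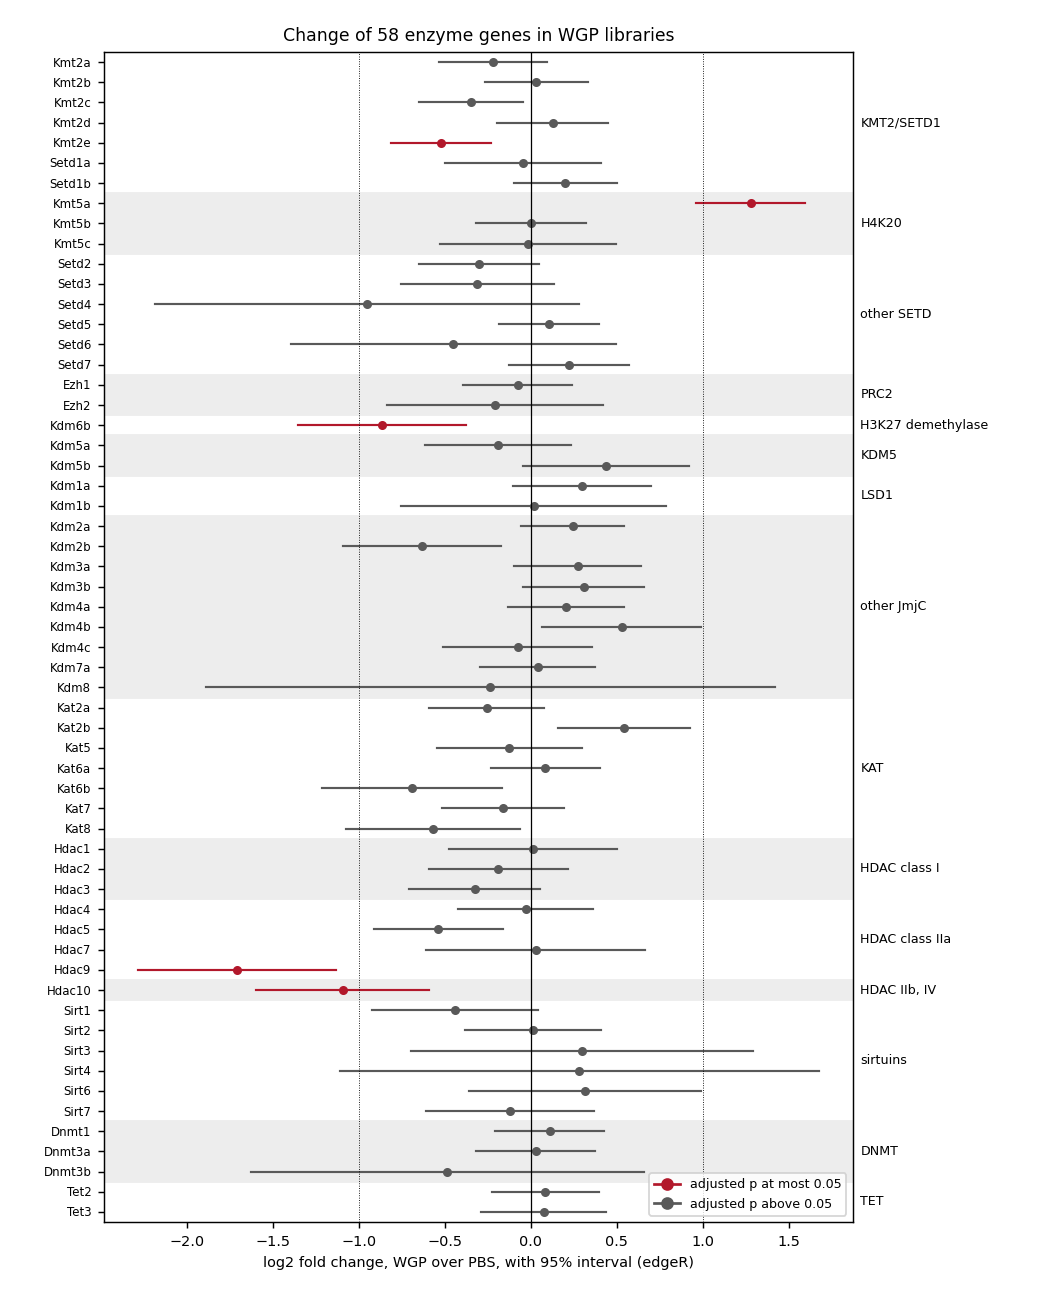
Log2 fold change of WGP over PBS libraries (x axis) for 58 of the 62 tested enzymes (rows, grouped by class), with the 95% interval of the edgeR fit as a line, red where the adjusted p is at most 0.05 and grey otherwise. The dotted lines mark 2-fold changes, and 4 genes with an SE over 1 are not drawn (Hdac11, Dnmt3l, Tet1 and Sirt5).

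Kmt5a, the enzyme that places the first methyl group on H4K20, was the only enzyme that rose and had the smallest adjusted p of the 62 genes. Kmt5a (ENSMUSG00000049327, chr5:124439930-124462308, plus strand) had 79.2, 67.6 and 66.9 CPM in the PBS libraries and 174, 181 and 163 CPM in the WGP libraries. The groups lay far apart, the lowest WGP library being above the highest PBS library, and the mean level was 2.42-fold higher. Its log2 fold change was 1.28 with an SE of 0.14, a 95% interval of 0.96 to 1.60 and an adjusted p of 0.00024. It passed in all 17 alternative settings, with log2 fold changes between 1.12 and 1.36. Kmt5b and Kmt5c, which add further methyl groups at the same lysine, did not pass. Kmt5b had 80.7, 85.8 and 90.97 CPM in the PBS libraries and 81.0, 94.2 and 82.2 CPM in the WGP libraries, a log2 fold change of 0.00 with an interval of -0.32 to 0.32, and Kmt5c had means of 106 ± 21.0 CPM in PBS and 105 ± 29.3 CPM in WGP, a log2 fold change of -0.02 (adjusted p = 0.978). The ratio of Kmt5a to Kmt5b per kilobase of exon was 2.73, 2.19 and 2.04 in the PBS libraries and 5.97, 5.34 and 5.499 in the WGP libraries.

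**Figure D3:**
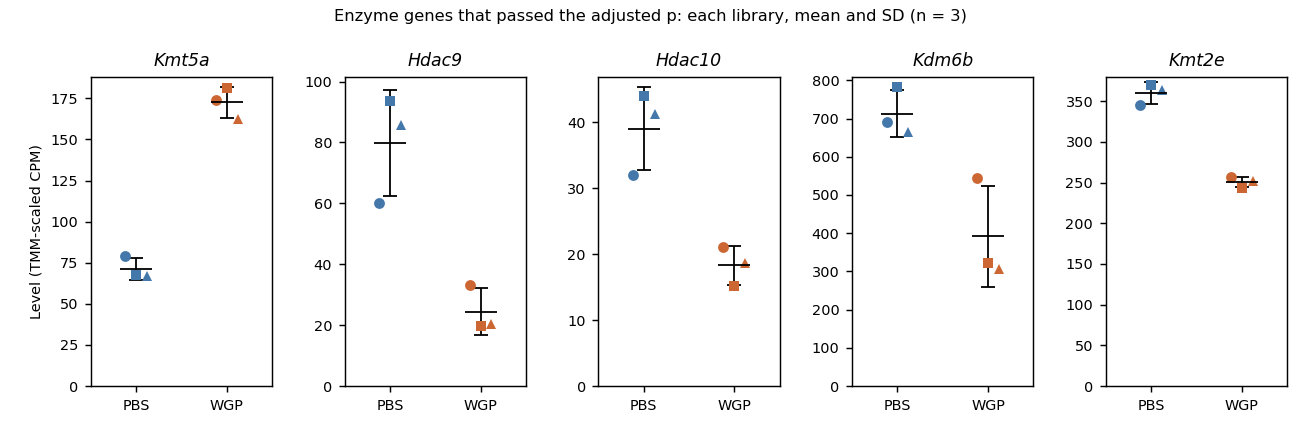
Level (y axis, TMM-scaled CPM, from 0) of the 5 enzyme genes that passed the adjusted p in each PBS and WGP library, with symbols for replicate numbers 1 (circle), 2 (square) and 3 (triangle), and the mean and SD of 3 libraries in black. The PBS and WGP values of each gene do not overlap, and WGP replicate 1 has the highest Kdm6b value of its group.

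Of the 9 histone deacetylases of the Hdac family tested, Hdac9 and Hdac10 fell and the other 7 did not pass, beside 6.81% of all genes tested that fell, and the share in so small a class was not tested. Hdac9, a class IIa deacetylase that binds transcription factors of the MEF2 family and has weak catalytic activity of its own, gave the largest fall of those that passed. Hdac9 (ENSMUSG00000004698, chr12:34047580-34917095, minus strand) had 60.2, 93.8 and 85.6 CPM in the PBS libraries and 33.4, 19.6 and 20.3 CPM in the WGP libraries. All WGP values were below all PBS values, with PBS replicate 1 the lowest of its group and WGP replicate 1 the highest of its own. The level was 3.27-fold lower, with a log2 fold change of -1.71, an SE of 0.26, an interval of -2.28 to -1.14 and an adjusted p of 0.00146. It passed in 16 of the 17 alternatives. When only libraries without Y-linked counts were compared, PBS replicate 1 against the WGP libraries, its log2 fold change was -1.30 and its adjusted p 0.0593, against 1.66e-07 at the low end of the alternatives.

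Hdac10, a class IIb enzyme known as a polyamine deacetylase, also fell. Hdac10 (ENSMUSG00000062906, chr15:89123307-89128700) had 31.9, 44.0 and 41.2 CPM in the PBS libraries and 21.1, 15.1 and 18.6 CPM in the WGP libraries. The groups did not overlap, and the level was 2.13-fold lower with a log2 fold change of -1.09 (SE 0.23, adjusted p = 0.00869). Its call was lost in a fit with a term for Y-linked counts (log2 fold change -0.80, adjusted p = 0.0934) and in the libraries without Y-linked counts (-0.80, adjusted p = 0.183), and its alternatives ran from 0.000690 to 0.183. Hdac5, another class IIa member, had 151, 172 and 179.6 CPM in the PBS libraries and 122, 91.8 and 132 CPM in the WGP libraries, with no overlap between groups and a log2 fold change of -0.54 (SE 0.17, adjusted p = 0.0609). It passed in 4 of the 17 alternatives, among them without PBS replicate 1, where its adjusted p was 0.0380 (0.0223 to 0.394 over the alternatives). The remaining class IIa genes did not pass, with log2 fold changes of -0.03 (adjusted p = 0.946) for Hdac4 and 0.03 (adjusted p = 0.97) for Hdac7. Hdac7 had 69.4 CPM in PBS replicate 1 but 34.8 and 31.1 CPM in the other PBS libraries, and its log2 fold change was -0.59 with the Y-linked covariate (adjusted p = 0.116) and ranged up to 0.48 over the alternatives, passing in none of them. PBS replicate 1 is the PBS library without Y-linked counts, and it also held the highest sums of B cell, neutrophil, eosinophil, NK cell, endothelial and proliferation markers. Their part in the Hdac7 values was not tested. Hdac11, the class IV enzyme, had 54, 219 and 309 counts in the PBS libraries and 39, 0 and 0 counts in the WGP libraries, and its log2 fold change of -3.78 (SE 1.82, adjusted p = 0.227) did not pass. Without WGP replicate 1 its adjusted p was 0.0131, the lowest of its alternatives, which reach 0.785.

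The class I deacetylases, the catalytic subunits of the Sin3, NuRD and CoREST corepressor complexes (Hdac1 and Hdac2) and of the NCoR complex (Hdac3), showed no call. Hdac3 had the smallest p-value of the 3, with 57.4, 56.8 and 49.5 CPM in the PBS libraries and 45.8, 38.6 and 46.1 CPM in the WGP libraries. Its groups did not overlap, and its log2 fold change was -0.33 (SE 0.17, adjusted p = 0.266). The log2 fold changes of Hdac1 and Hdac2 were 0.01 (adjusted p = 0.982) and -0.19 (adjusted p = 0.553). Summed per kilobase of exon, the 9 Hdac members came to 86.4, 84.9 and 82.1 in the PBS libraries and 70.3, 58.1 and 62.8 in the WGP libraries, a mean lower by 24.5%, while class I alone was at 37.7 ± 4.33 and 33.9 ± 3.16 (SD, n = 3). The class IIa sum was 33.6 to 34.2 in PBS and 21.0 to 26.2 in WGP libraries. That of Hdac10 and Hdac11 was 9.82 to 14.5 in PBS and 4.48 to 6.52 in WGP libraries. Outside the Hdac family and Kdm6b, the sums of 4 classes did not overlap between the groups. Those of the 3 Kmt5 genes (40.9 to 49.3 in PBS and 58.6 to 68.6 in WGP) and of the JmjC demethylases of H3K36 and H3K9 (103 to 105 and 111 to 120) were higher in WGP libraries. Those of the 7 Kmt2 and Setd1 genes with Kmt2e (110 to 115 and 97.03 to 107) and of the 6 other Setd genes (52.7 to 56.8 and 47.3 to 49.99) were lower. The class sums were chosen after the values had been seen and were not tested.

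**Figure D4:**
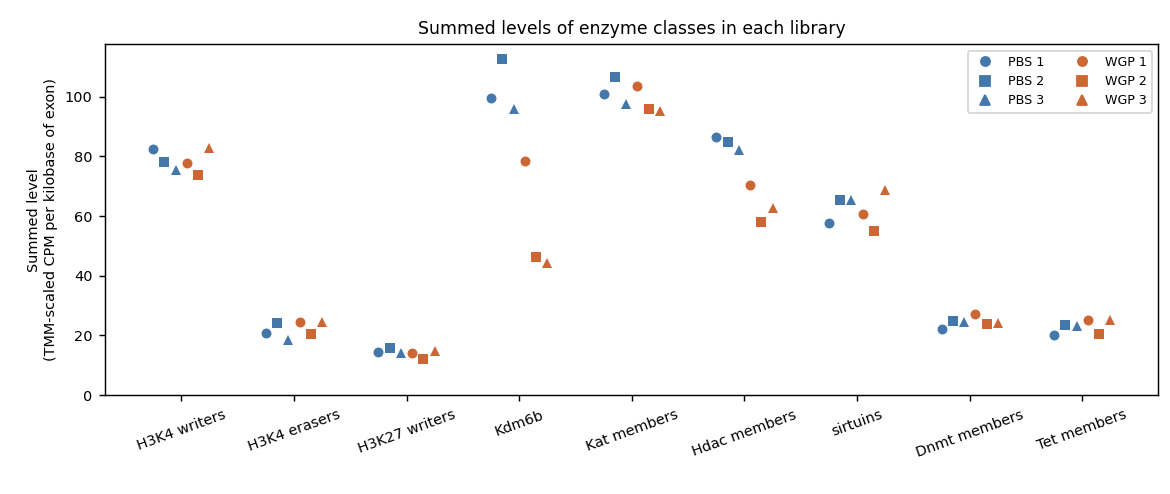
Summed levels of 9 groups of enzymes (y axis, TMM-scaled CPM per kilobase of exon, from 0) in the 3 PBS (blue) and 3 WGP (orange) libraries, with symbols for replicate numbers. The Hdac sum (82.1 to 86.4 in PBS, 58.1 to 70.3 in WGP) and Kdm6b alone do not overlap between PBS and WGP, and the other 7 sums drawn do. The H3K4 writers drawn leave out Kmt2e, and the H3K4 erasers drawn leave out the X-linked Kdm5c. The Kmt5, other Setd and H3K36 and H3K9 demethylase sums are not drawn.

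Methyl marks on H3K27 are set by Ezh1 and Ezh2, the catalytic subunits of Polycomb repressive complex 2 (PRC2). Kdm6b, also known as JMJD3, removes them and is a demethylase induced by inflammatory signals in macrophages. Kdm6b was the most abundant of the 62 enzymes per kilobase of exon in both groups and it fell. Kdm6b (ENSMUSG00000018476, chr11:69398508-69413675) had 691, 782 and 666 CPM in the PBS libraries and 545, 322 and 307 CPM in the WGP libraries. WGP replicate 1 stood between the PBS values and the other WGP libraries, and no WGP value reached the PBS range. The level was 1.82-fold lower, with a log2 fold change of -0.87 (SE 0.22, adjusted p = 0.0248). This call rested on few libraries: the adjusted p was 0.101 without PBS replicate 2, 0.0771 without WGP replicate 2, 0.106 without WGP replicate 3 and 0.107 with the Y-linked covariate, while the log2 fold change stayed between -1.18 and -0.72 over all alternatives. In the libraries without Y-linked counts the adjusted p was 0.178, and the lowest over the alternatives was 0.000754. The summed dissociation response genes were lower in the WGP libraries too (24534 to 31778 CPM in PBS and 9189 to 12546 CPM in WGP). Their part in the Kdm6b values was not tested. Of its exon bases 4.11% overlap the antisense gene Kdm6bos.

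Neither PRC2 enzyme passed. Ezh2, the enzyme typical of dividing cells, had 24.5, 30.7 and 17.1 CPM in the PBS libraries and 22.6, 16.0 and 24.0 CPM in the WGP libraries, overlapping groups with a log2 fold change of -0.21 (SE 0.28, adjusted p = 0.703). Its sign turned without PBS replicate 2, where it was 0.0057. Ezh1, the form more common in resting cells, was at means of 82.6 ± 3.50 CPM in PBS and 78.3 ± 6.62 CPM in WGP, with a log2 fold change of -0.08 and an interval of -0.40 to 0.24. Ezh1 was the more abundant per kilobase in every library, the ratio of Ezh2 to Ezh1 being 0.221 to 0.414 in PBS and 0.251 to 0.317 in WGP libraries. Of the 18 proliferation markers Pcna and Mcm6 fell, and their sum was 972 CPM in PBS replicate 1 and 493 to 593 CPM in the other libraries.

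H3K4 methylation is written by the Kmt2 and Setd1 enzymes of the COMPASS complexes. Among the 7 genes of this class Kmt2e fell and the others did not pass. Kmt2e carries a SET domain without clear methyltransferase activity and binds H3K4 methyl marks through its PHD finger. Kmt2e (ENSMUSG00000029004, chr5:23434441-23504235) had 345, 370.3 and 364 CPM in the PBS libraries and 257, 244 and 251 CPM in the WGP libraries. The groups did not overlap, and the level was 1.44-fold lower with a log2 fold change of -0.52 (SE 0.13, adjusted p = 0.0225). Its adjusted p rose above 0.05 in 8 of the 17 alternatives, among them without PBS replicate 2 (0.0984), PBS replicate 3 (0.0563), WGP replicate 1 (0.0727), WGP replicate 2 (0.0642) or WGP replicate 3 (0.0907), with the Y-linked covariate (0.0854) and in the libraries without Y-linked counts (0.139), while the lowest over the alternatives was 7.00e-05. The log2 fold change ranged from -0.62 to -0.46 over the alternatives. Of its exon bases 9.31% overlap Srpk2 on the opposite strand, which itself passed with a log2 fold change of -0.59, and the strand setting of the counting is not given in the sources used here.

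The 6 enzymes of this class with methyltransferase activity had 95% intervals within 2-fold. Kmt2a, Kmt2c and Kmt2d were at log2 fold changes of -0.22 (adjusted p = 0.374), -0.35 (adjusted p = 0.131) and 0.13 (adjusted p = 0.633). Those of Kmt2b, Setd1a and Setd1b were 0.03 (adjusted p = 0.927), -0.05 (adjusted p = 0.927) and 0.20 (adjusted p = 0.388), and 52.3% of the exon bases of Setd1a are shared with other annotated genes. Their summed level per kilobase was 78.6 ± 3.54 in PBS and 78.1 ± 4.64 in WGP libraries (SD, n = 3). Opposite them, the autosomal H3K4 demethylases Kdm1a and Kdm1b (LSD1 and LSD2) and Kdm5a and Kdm5b summed to 21.2 ± 2.72 and 23.3 ± 2.28. This sum leaves out the X-linked H3K4 demethylase Kdm5c, which is not a member and which rose (log2 fold change 0.77, adjusted p = 0.0256 in edgeR). Kdm5b had 30.1, 35.6 and 25.4 CPM in the PBS libraries and 40.03, 49.1 and 34.2 CPM in the WGP libraries, a log2 fold change of 0.44 (SE 0.22, adjusted p = 0.239), with PBS replicate 2 above the lowest WGP library. Kdm1a had 43.6, 59.2 and 43.7 CPM in the PBS libraries and 64.0, 57.3 and 58.7 CPM in the WGP libraries, a log2 fold change of 0.30 (SE 0.18, adjusted p = 0.343). The groups of both genes overlapped. The log2 fold changes of Kdm5a and Kdm1b were -0.19 (adjusted p = 0.573) and 0.02 (adjusted p = 0.985).

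The other 9 JmjC demethylases tested were grouped here under H3K36 and H3K9, the main targets of most but not all of them, and none passed. Kdm2b, an H3K36 demethylase that brings a Polycomb repressive complex 1 to CpG islands, had 74.5, 51.6 and 47.0 CPM in the PBS libraries and 37.1, 35.96 and 38.5 CPM in the WGP libraries. The highest value was that of PBS replicate 1, and the groups did not overlap, with a log2 fold change of -0.63 (SE 0.21, adjusted p = 0.0705). It was lower at an adjusted p of 0.0112 with the Y-linked covariate, where its log2 fold change was -1.002, at 0.0446 without PBS replicate 3 and at 0.0231 in the libraries without Y-linked counts, and at up to 0.176 in the other alternatives. Of its exon bases 8.74% are shared, in part with Rnf34 on the opposite strand, which rose by 1.13 on the log2 scale. On the higher side without a call were Kdm4b, an H3K9 demethylase, at means of 34.2 ± 3.57 CPM in PBS and 49.3 ± 10.7 CPM in WGP and a log2 fold change of 0.53 (SE 0.21, adjusted p = 0.133), and the H3K9 demethylases Kdm3a and Kdm3b at log2 fold changes of 0.27 (adjusted p = 0.347) and 0.31 (adjusted p = 0.261). Kdm2a, Kdm4a, Kdm4c and Kdm7a had intervals within 2-fold, with log2 fold changes of 0.24, 0.20, -0.08 and 0.04. Kdm8 was low, at means of 3.39 ± 0.662 CPM in PBS and 2.88 ± 0.805 CPM in WGP, and its interval of -1.89 to 1.42 leaves a large change in either direction inside it.

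Among the 7 Kat acetyltransferases no gene passed, and their sum per kilobase was 102 ± 4.57 in PBS and 98.2 ± 4.66 in WGP libraries. The closely related Kat2a and Kat2b (GCN5 and PCAF), which acetylate H3K9, lay on opposite sides of no change. Kat2b had 52.0, 60.3 and 53.8 CPM in the PBS libraries and 89.5, 86.8 and 65.6 CPM in the WGP libraries, a log2 fold change of 0.54 (SE 0.17, adjusted p = 0.0637), and Kat2a had 69.7, 74.1 and 77.6 CPM in the PBS libraries and 65.6, 57.1 and 62.5 CPM in the WGP libraries, a log2 fold change of -0.26 (SE 0.15, adjusted p = 0.322). Neither gene passed, though the groups of each did not overlap. Without WGP replicate 3 Kat2b had an adjusted p of 0.0489 (up to 0.224 over the alternatives). The ratio of Kat2b to Kat2a per kilobase was 0.533, 0.582 and 0.496 in the PBS libraries and 0.976, 1.09 and 0.751 in the WGP libraries. Kat6a and Kat6b (MOZ and MORF) are also close relatives that work with BRPF scaffolds, and their ratio was 8.36 to 14.4 in PBS and 16.7 to 23.7 in WGP libraries. Kat6b had 29.1, 39.5 and 45.1 CPM in the PBS libraries and 27.2, 19.5 and 23.7 CPM in the WGP libraries, a log2 fold change of -0.69 (SE 0.23, adjusted p = 0.0825), whereas that of Kat6a was 0.08 (adjusted p = 0.77). Kat6b passed without PBS replicate 1 (adjusted p = 0.0276) and with library totals only (0.0442), but in none of the other alternatives (up to 0.619 over the alternatives). Kat8 (MOF), the H4K16 acetyltransferase, had 22.8, 24.6 and 23.4 CPM in the PBS libraries and 15.1, 15.5 and 17.2 CPM in the WGP libraries, with separated groups and a log2 fold change of -0.57 (SE 0.23, adjusted p = 0.14). The log2 fold changes of Kat5 (TIP60) and Kat7 (HBO1) were -0.12 (adjusted p = 0.742) and -0.16 (adjusted p = 0.573). The pairs were picked after the values had been seen, and their ratios carry no test.

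None of the 6 other Setd genes passed. Setd2, the enzyme for H3K36 trimethylation, had the smallest p-value of them with 239, 227 and 174 CPM in the PBS libraries and 172, 163 and 184 CPM in the WGP libraries, overlapping groups and a log2 fold change of -0.30 (SE 0.16, adjusted p = 0.27). Setd7, a monomethyltransferase of H3K4 studied in trained immunity, had 93.3, 69.6 and 88.7 CPM in the PBS libraries and 94.3, 98.7 and 101 CPM in the WGP libraries. The WGP values were just above the PBS values, and the log2 fold change was 0.22 with an interval of -0.12 to 0.57 and an adjusted p of 0.402. The log2 fold changes of Setd3, an actin histidine methyltransferase, and of Setd5 were -0.31 (adjusted p = 0.37) and 0.10 (adjusted p = 0.674). Setd4 and Setd6 were low, at PBS means of 7.10 and 8.81 CPM, and their log2 fold changes of -0.95 (SE 0.55, adjusted p = 0.325) and -0.45 (SE 0.43, adjusted p = 0.544) were imprecise.

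The sirtuins, whose activity depends on NAD, had no call among 7 genes. Sirt1, a nuclear deacetylase that acts on histones and on p65, had 37.3, 40.8 and 31.6 CPM in the PBS libraries and 26.4, 22.2 and 32.3 CPM in the WGP libraries, a log2 fold change of -0.44 (SE 0.22, adjusted p = 0.238), with WGP replicate 3 inside the PBS range. Sirt2 was the most abundant sirtuin per kilobase, at means of 150.1 ± 33.5 CPM in PBS and 151 ± 9.02 CPM in WGP, and its log2 fold change was 0.01 with an interval of -0.38 to 0.41. The log2 fold changes of Sirt7 and Sirt6 were -0.12 (adjusted p = 0.788) and 0.32 (adjusted p = 0.554). The mitochondrial sirtuins Sirt3, Sirt4 and Sirt5 had means of at most 9.68 CPM in either group and intervals that reached beyond 2-fold. The summed sirtuins were 62.8 ± 4.52 per kilobase in PBS and 61.4 ± 6.91 in WGP libraries.

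DNA methyltransferases and Tet dioxygenases had no call, and the intervals of Dnmt1, Dnmt3a, Tet2 and Tet3 lay within 1.5-fold. Dnmt1, the maintenance enzyme, had 98.5, 109 and 104 CPM in the PBS libraries and 121, 115 and 100.03 CPM in the WGP libraries, a log2 fold change of 0.11 with an interval of -0.21 to 0.43. Dnmt3a, the main de novo enzyme in these libraries, was at means of 143 ± 11.8 CPM in PBS and 146 ± 20.5 CPM in WGP, with a log2 fold change of 0.03 and an interval of -0.32 to 0.37. Dnmt3b was far lower, at means of 6.80 ± 2.22 CPM in PBS and 4.85 ± 1.04 CPM in WGP. Dnmt3l, a catalytically inactive cofactor of germ cells, had the smallest p-value of the class but was at 0 counts in all PBS libraries and WGP replicate 1 and at 0.314 and 0.904 CPM in WGP replicates 2 and 3, with an adjusted p of 0.33. Tet2 had 148, 156 and 144 CPM in the PBS libraries and 170.2, 140.0 and 164 CPM in the WGP libraries, a log2 fold change of 0.08 with an interval of -0.23 to 0.39, and its sign turned to -0.020 when library totals alone were used for scaling. Tet3 had a log2 fold change of 0.08 with an interval of -0.29 to 0.44. Tet1 had at most 3.91 CPM in any library. The ratio of Tet3 to Tet2 (1.51 in PBS and 1.5 in WGP on average) and of Dnmt3a to Dnmt1 (0.611 and 0.582) overlapped between the groups.

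**Figure D5:**
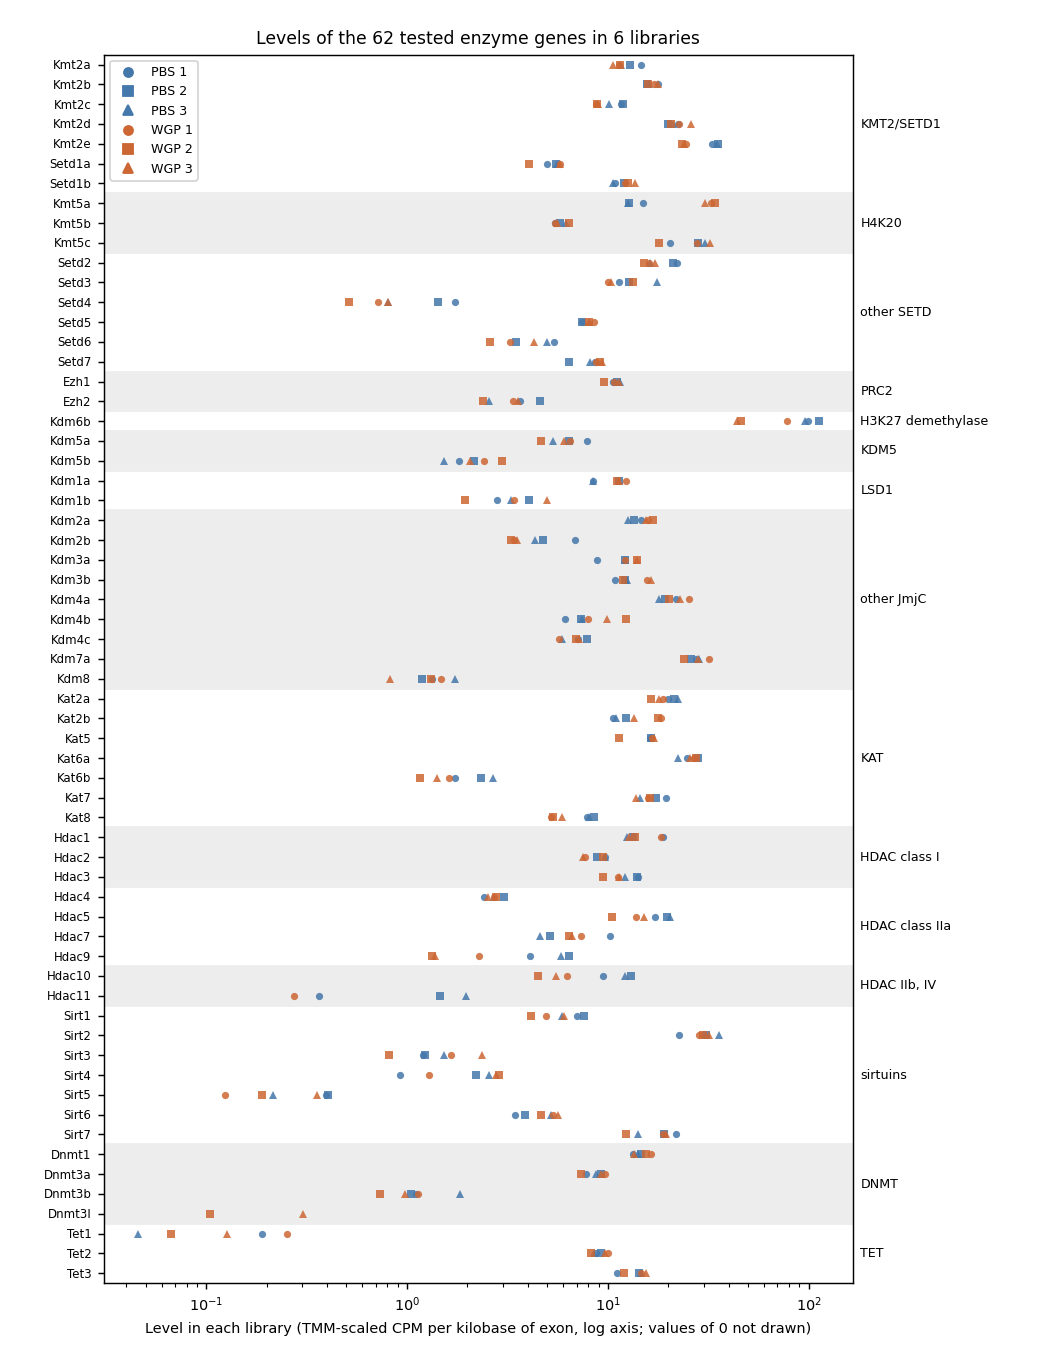
Level of each of the 62 tested enzymes (rows, grouped by class) in each library (x axis, TMM-scaled CPM per kilobase of exon, log axis), PBS in blue and WGP in orange, with symbols for replicate numbers and values of 0 not drawn. Kdm6b lies farthest to the right in every library, and the blue and orange points of Kmt5a, Hdac9, Hdac10 and Kmt2e do not overlap.

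Per kilobase of exon the levels of the 62 genes spanned a wide range. Kdm6b led with 102.5 ± 8.78 in PBS and 56.3 ± 19.2 in WGP libraries (SD, n = 3). Kmt2e was at place 2 in PBS with 34.4 ± 1.25 and at place 7 in WGP with 24.0 ± 0.638, while Kmt5a was at place 21 in PBS with 13.4 ± 1.30 and at place 2 in WGP with 32.5 ± 1.75. Sirt2, Kdm7a, Kmt5c and Kat6a kept places 3 to 6 in both groups. Hdac10 went from place 25 to place 42 and Hdac9 from place 44 to place 53. The sum over all 64 genes was 752 ± 20.4 in PBS and 697 ± 46.8 in WGP libraries, 7.31% lower, with 739.7 in the lowest PBS and 739.6 in the highest WGP library. This is a net difference of 54.9 over genes on both sides of no change, and without Kdm6b, which was lower by 46.2, it was 8.70.

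The genes that work with these enzymes were read from 10 lists of 170 genes, of which 167 were tested. Of these 4 rose and 9 fell, 7.78%, again below the 14.4% of all genes. Of the 9 PRC2 partners tested 2 rose and 2 fell. Jarid2, which recruits PRC2 to its targets, had 115, 128 and 115 CPM in the PBS libraries and 263, 234 and 217 CPM in the WGP libraries, a log2 fold change of 0.997 (SE 0.14, adjusted p = 0.00104), and Aebp2, its companion in the same form of the complex, had 51.8, 69.6 and 63.7 CPM in the PBS libraries and 112, 127 and 99.3 CPM in the WGP libraries, a log2 fold change of 0.87 (SE 0.17, adjusted p = 0.00601). Both rose, with no overlap between groups, while Phf1 and Rbbp7 fell by 0.72 and 0.57 on the log2 scale. Among other demethylases Jmjd1c, a relative of Kdm3a and Kdm3b, fell: it had 576, 576 and 544 CPM in the PBS libraries and 195, 116 and 191 CPM in the WGP libraries, a log2 fold change of -1.76 (SE 0.20, adjusted p = 0.000276). The COMPASS partners of the Kmt2 enzymes (14 genes), the corepressor partners of the Hdac enzymes (23) and the other acetyltransferases (11) had no call in edgeR, with 0, 3 and 2 genes at an unadjusted p under 0.05 and 0, 1 and 2 genes passing in DESeq2. Their smallest adjusted p-values were 0.219 and 0.259 for Bod1 and Hcfc1, 0.0588 and 0.117 for Mbd2 and Gps2, and 0.0562 and 0.0575 for Hat1 and Clock. The arginine methyltransferase Prmt7 and the Kat7 partner Jade1 fell, with log2 fold changes of -1.18 (adjusted p = 0.0272) and -1.03 (adjusted p = 0.0287), as did the CXXC protein Cxxc5 and the reader Trim24, with -2.48 (adjusted p = 0.0189) and -0.97 (adjusted p = 0.0108). Next by p-value in their lists, without passing, were Hspbap1, Carm1, Brpf1, Tdg and Zmynd11, with adjusted p-values of 0.0812, 0.0546, 0.0680, 0.0860 and 0.0609.

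The cofactors of these enzymes were covered by 19 genes, of which 2 rose and 2 fell, beside the 14.4% of all genes and the 22.5% of genes of at least 10 CPM that passed. Nampt, which makes the NAD precursor that sirtuins depend on, had 142, 147 and 121 CPM in the PBS libraries and 492, 938 and 526 CPM in the WGP libraries, a log2 fold change of 2.26 (SE 0.25, adjusted p = 0.000207). Mat2a, which makes the methyl donor S-adenosylmethionine, had 263, 262 and 232 CPM in the PBS libraries and 107, 127 and 110.2 CPM in the WGP libraries, a log2 fold change of -1.14 (SE 0.14, adjusted p = 0.000456). Idh2, a mitochondrial source of the 2-oxoglutarate used by JmjC and Tet enzymes, had a log2 fold change of -1.26 (SE 0.23, adjusted p = 0.00438), and the succinate dehydrogenase subunit Sdhb of 0.76 (SE 0.14, adjusted p = 0.00543). The groups of these 4 genes did not overlap, as was so for 32% of all genes and 42.9% of genes of at least 10 CPM.

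Enzymes of the same families on the sex chromosomes are not members under the rule. Kdm5d and Uty, on the Y chromosome, had counts in PBS replicates 2 and 3 only. Kdm5c, an X-linked H3K4 demethylase, had 167, 116 and 97.7 CPM in the PBS libraries and 200.1, 227 and 218 CPM in the WGP libraries (log2 fold change 0.77, adjusted p = 0.0256), and the PBS library without Y-linked counts was the nearest to the WGP values. Kdm6a, the X-linked H3K27 demethylase, had 111, 64.4 and 67.0 CPM and 89.0, 82.9 and 78.2 CPM, and its log2 fold change of 0.04 did not pass (adjusted p = 0.932). Hdac6 and Hdac8, both X-linked deacetylases, did not pass, with log2 fold changes of -0.91 (adjusted p = 0.101) and 0.51 (adjusted p = 0.639).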

How the data were processed

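RNA of sorted pancreatic CD45+CD11b+ cells was measured in 3 PBS and 3 WGP libraries, grouped by their labels. The authors prepared polyA-selected libraries, sequenced them single-end in the same run, mapped the reads to mm10 with STAR 2.6, and deposited unnormalized HTSeq 0.10.0 counts for each Ensembl gene. The annotation release and the strand setting are not given in the sources used here, so genes with overlapping exons are uncertain. The authors' RLE scaling and their filter of 10 counts were not applied in the table.

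Symbols, exon lengths (merged exons) and coordinates came from GENCODE vM21 for the same build. In R 4.3.3, edgeR 4.0.16 tested WGP against PBS with the quasi-likelihood F test, no covariate and TMM factors, over 14429 protein-coding genes, those whose RLE-normalized counts added up to 10 or more in the 6 libraries. The 80 table rows of other or no biotype were left out of the test. Adjusted p-values are Benjamini-Hochberg values over all genes tested. A gene passed at an adjusted p of at most 0.05 and is said to rise or fall only then. SEs are the log2 fold change divided by the square root of F, and 95% intervals use the fit's degrees of freedom. The fitting code was tested on simulated data, in which most 2-fold changes did not pass, so a gene that did not pass is not shown to be unchanged. Alternatives included DESeq2 1.42.0 and limma 3.58.1.

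The members follow from their symbols alone, but the choice of these families, like that of the gene lists, roles and tests, was made with earlier results of these data known, and the class sums, gene pairs, second background and the comparison of libraries without Y-linked counts were chosen after these values were seen. Values in all 6 libraries were to be given for each enzyme that passed, for those with the 2 highest levels per length in a group and for the smallest p-value of each class. The 2 genes with the smallest p-value were to be named in each list of partners. Further genes were named after their values were seen.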

Additional observations from a re-analysis of the deposited data

How the results depend on the processing

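Kmt5a passed in all 17 alternatives run, and Hdac9 in all but the comparison of libraries without Y-linked counts, which was chosen after the data were seen and leaves PBS with 1 library assumed to vary like the WGP group. In a fit with a term for Y-linked counts 2 enzymes passed on the lower side in place of 4, and in the libraries without Y-linked counts 1 passed on that side and 0 did so with a 2-fold change. In the first of these fits Kdm2b passed and Hdac10, Kdm6b and Kmt2e did not, and in the second Kdm2b was the enzyme that passed as lower. Leaving out each library in turn gave 1 to 2 enzymes higher, 2 to 6 lower and, with a 2-fold change, 1 to 4 lower. Over all genes, between 1417 and 2692 passed in the alternatives, against 2071. The log2 fold change of Ezh2 ranged from -0.40 to 0.0057 when libraries were left out, its sign turning without PBS replicate 2, and that of Tet2 was -0.020 with library totals only, a scaling that moved the median log2 fold change of all genes from -0.05 to -0.16, and the cause was not tested. RLE size factors, limma-voom, filterByExpr, no filter and thinned counts passed the same 5 enzymes, DESeq2 and upper-quartile factors added Hdac5, and library totals only added Hdac5 and Kat6b. Of the 62 enzymes 21 turned sign in at least 1 alternative, and 0 of these passed in any. Of the 21, 20 were within 1.5-fold of no change as reported. In 3 of them the log2 fold change also moved by more than 1.5-fold: Hdac7 (-0.59 to 0.48), Sirt4 (-0.050 to 1.33) and Tet1 (-0.35 to 2.70).

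With the replicate number as a block 3 enzymes were lower, since Kmt2e had an adjusted p of 0.0550, and 1947 genes passed in all. Same-numbered libraries had correlations of 0.003, -0.045 and 0.011 between their deviations from the group means, so the numbers were taken not to pair them.

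Counts were low for the 6 enzymes with a median under 100 counts: Dnmt3c and Kdm4d could not be tested, and Dnmt3l, Tet1, Hdac11 and Sirt5 had wide intervals. Whether depth or low expression limited them was not tested.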
